A study of Mus musculus with 20 samples.

Results

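Progress through the G1 phase of the cell cycle is driven by cyclins, the kinases they activate and the inhibitors that restrain those kinases, and 10 genes of this machinery were followed here by their symbols. They are the D-type cyclins Ccnd1, Ccnd2 and Ccnd3, the E-type cyclins Ccne1 and Ccne2, the kinases Cdk2, Cdk4 and Cdk6, and the inhibitors Cdkn1b and Cdkn2a. All 10 were found in the RNA table and in both histone mark tables, and all 10 passed the filter on low values that left 15428 of 53440 genes and loci for testing. The cells were TL1 mouse embryonic stem (ES) cells, grown with serum and LIF, and embryoid bodies (EB), aggregates grown in the medium without LIF. Wild type (WT) cells were set against knockout (KO) cells in which CRISPR/Cas9 had been used to deplete p150, a CAF-1 subunit encoded by Chaf1a. CAF-1 places histones H3 and H4 on newly copied DNA. The labels give no number of clones, no day of EB culture for the RNA samples and no other allele or agent. ChIP titles of EB, such as H3K27Me37EBWT, carry a digit before EB that RNA titles lack. The titles do not say what that digit stands for. Whether RNA and marks of EB come from the same day is thus unknown. RNA-seq had 2 libraries in each of the 4 groups. For ChIP-seq each group had a single library of H3K27me3, the mark laid by Polycomb at silenced genes, and another of H3K4me3, found at promoters in use.

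D-type cyclins join Cdk4 or Cdk6 in response to growth signals and phosphorylate the retinoblastoma protein, which otherwise holds E2F transcription factors in check. E2F then raises Ccne1 and Ccne2, whose products join Cdk2 and start DNA replication. Cdkn1b encodes p27, an inhibitor of cyclin E with Cdk2, and Cdkn2a encodes both p16, an inhibitor of Cdk4 and Cdk6, and p19Arf, which stabilises p53. Mouse ES cells are known for a short G1 phase and for high cyclin E with low levels of inhibitors, a pattern that changes as they differentiate.

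RNA levels are given in FPKM, fragments scaled to transcript length and library size, so levels can be set side by side between genes. All FPKM of a library summed to between 641813 and 782026, and with no counts to go by its sequencing depth is unknown. Separate cultures for both libraries of a group are not stated, and the p-values reflect a spread that may be technical. Chaf1a had 49.5 and 43.0 FPKM in WT ES, 48.1 and 38.0 in KO ES, 31.7 and 32.1 in WT EB and 31.6 and 35.0 in KO EB, with WT and KO overlapping at both stages, so this level does not check the knockout label. In bulk samples such as these, fewer cells of a type and less RNA per cell cannot be told apart. Tests are limma's on log2(FPKM + 1), with Benjamini-Hochberg adjusted p over all 15428 genes and a call at an adjusted p under 0.05. Differences on that scale understate the change of low genes.

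Of the 10 genes, 2 were called higher and 3 lower in KO than in WT EB. Of all genes tested, 20% were called higher and 25.9% lower there (45.9% in either direction), so the share of these genes that was called is near the background. Of the calls over all genes 43.6% were higher, or 30.7% after scaling libraries to the same total. In ES cells 0 of the 10 were called by limma between KO and WT, against 0.499% of all genes (0.421% higher and 0.0778% lower), and 3 of the 10 (Ccnd2, Ccne2 and Cdkn2a) had an unadjusted p under 0.05, as did 13.6% of all genes. From ES to EB, 4 rose and 3 fell in WT, where 36.1% of all genes rose and 24.8% fell (60.9% in all, with 59.3% of the calls higher, or 46.3% after quantile normalization). In KO, 1 rose and 4 fell, against 17.1% and 12% of all genes (29.1% in all, with 58.8% of the calls higher, or 48.1% after scaling to the same total). The difference between the KO effects in EB and ES was called for 3 of the 10, 1 higher and 2 lower, against 31.3% of all genes (12.7% and 18.6%). Of those calls over all genes 40.5% were higher, 27.6% after scaling to the same total and 51.7% after quantile normalization. The median log2 difference of the 10 genes was -0.15 in KO against WT EB (all genes, -0.064) and -0.08 in ES (0.022), with genes of the list on both sides of 0.

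**Figure D1:**
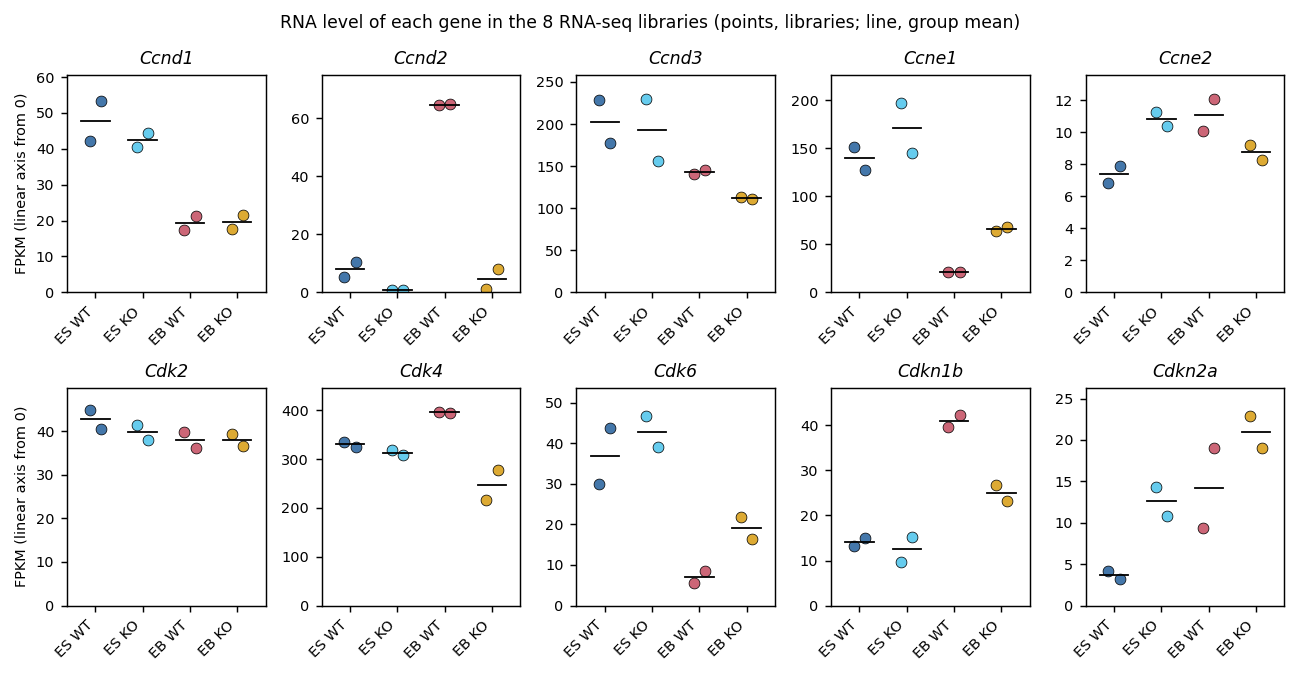
FPKM of the 10 genes (vertical axes, linear from 0, a scale of its own for each gene) in the 8 RNA-seq libraries by group; points are libraries and lines are group means (n = 2). Ccnd2 stands at 64.4 and 65.0 in WT EB and at 10.3 or less elsewhere, while Ccne1 and Cdk6 are lowest in WT EB.

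Among the D-type cyclins, the gene with the widest range was Ccnd2 (ENSMUSG00000000184.12, mm10 chromosome 6, 127125162 to 127152193). It had 5.44 and 10.3 FPKM in WT ES, 0.765 and 0.851 in KO ES, 64.4 and 65.0 in WT EB, and 1.22 and 7.85 in KO EB. WT EB stood above all other libraries, KO ES lay below WT ES with no overlap, and KO EB overlapped WT ES. Ccnd2 rose by 2.94 ± 0.59 (SE) on the log2 scale from ES to EB in WT (adjusted p = 0.00399). The log2 difference from ES to EB in KO was 1.29 ± 0.59 (adjusted p = 0.140), and 2.29 without EB KO replicate 1 (adjusted p = 0.00958). In EB its log2 difference between KO and WT was -3.89 ± 0.59 (adjusted p = 0.00249). In ES the difference of -2.24 ± 0.59 was not called (adjusted p = 0.161), although it passed without EB KO replicate 1 (adjusted p = 0.0488), a library that enters through the shared estimate of spread. The difference between both knockout effects, -1.65 ± 0.83, was not called (adjusted p = 0.173), but was -2.64 and called without EB KO replicate 2 (adjusted p = 0.00888).

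The pair of KO EB libraries was uneven for Ccnd2, and summed markers of differentiated cells were uneven in the same direction, to unlike degrees. EB KO replicate 2 had 7.85 FPKM of Ccnd2 against 1.22 in replicate 1. The 8 cardiomyocyte markers summed to 279 FPKM in replicate 2 and 29.9 in replicate 1, and the 12 fibroblast and feeder markers to 336 and 137, of which Vim gave 237 and 95.5. Sums were 98.8 and 77.2 for blood and endothelium, 166 and 66.5 for endoderm, and 16.9 and 8.92 for neural progenitors. Col1a2, Dcn, Thy1 and Hbb-bh1 went the other way, lower in replicate 2. In WT EB replicates 1 and 2 the cardiomyocyte sums were 4690 and 3420, and the fibroblast and feeder sums 1464 and 1617. The part of these cells in the Ccnd2 result was not tested. Without EB KO replicate 2 the KO against WT difference in EB was -4.89 and without EB KO replicate 1 it was -2.89, and the call held in both cases.

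Ccnd1 (ENSMUSG00000070348.5, chromosome 7, 144929931 to 144939925) did not show this pattern. Its values were 42.2 and 53.4 FPKM in WT ES, 40.5 and 44.5 in KO ES, 17.4 and 21.3 in WT EB, and 17.8 and 21.6 in KO EB. Both ES groups lay above both EB groups, and WT and KO overlapped within each stage. Ccnd1 fell by 1.26 ± 0.17 on the log2 scale from ES to EB in WT (adjusted p = 0.000567) and by 1.08 ± 0.17 in KO (adjusted p = 0.00531). The KO against WT difference was 0.02 ± 0.17 in EB (adjusted p = 0.921), with a sign that turned negative after scaling libraries to the same total. Oraov1, which overlaps its locus, is listed at up to 18.3 FPKM.

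Ccnd3 (ENSMUSG00000034165.16, chromosome 17, 47505051 to 47599691) was the most abundant D-type cyclin per length in all 8 libraries. It had 229 and 177 FPKM in WT ES, 229 and 157 in KO ES, 141 and 145 in WT EB, and 114 and 111 in KO EB. KO EB was below WT EB with no overlap, at a log2 difference of -0.35 ± 0.19 that was not called (adjusted p = 0.181). It was called when libraries were scaled to the same total (adjusted p = 0.0417) or when the fit held just the groups compared (adjusted p = 0.0318). From ES to EB in KO, Ccnd3 fell by 0.75 ± 0.19 (adjusted p = 0.0273), which no longer passed when ES KO replicate 1 (adjusted p = 0.103), EB KO replicate 1 (0.0883) or EB KO replicate 2 (0.107) was left out, with no filter on low values (0.0848) or with just the groups compared (0.0701). The difference from ES to EB in WT was -0.49 ± 0.19 (adjusted p = 0.0620), and it was called without ES WT replicate 2 (adjusted p = 0.0440) or either KO ES library (0.0211 for both). A processed copy, Ccnd3-ps, is listed at up to 1.19 FPKM and Bysl, whose locus overlaps that of Ccnd3, at up to 47.2, and either could share reads with it.

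The make-up of the D-type cyclin RNA stood apart in WT EB. Ccnd2 gave 28.9% and 28.1% of the summed Ccnd1, Ccnd2 and Ccnd3 FPKM in WT EB, 1.97% and 4.30% in WT ES, 0.283% and 0.421% in KO ES, and 0.920% and 5.60% in KO EB. Ccnd3 gave 63.3% and 62.7% in WT EB and between 73.5% and 85.7% in the other 6 libraries. The sum itself was 223 and 231 FPKM in WT EB and 133 and 140 in KO EB, and ran from 202 to 276 over the ES libraries. KO EB thus had the lowest summed D-type FPKM of the 4 groups. These shares are a description with no test.

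**Figure D2:**
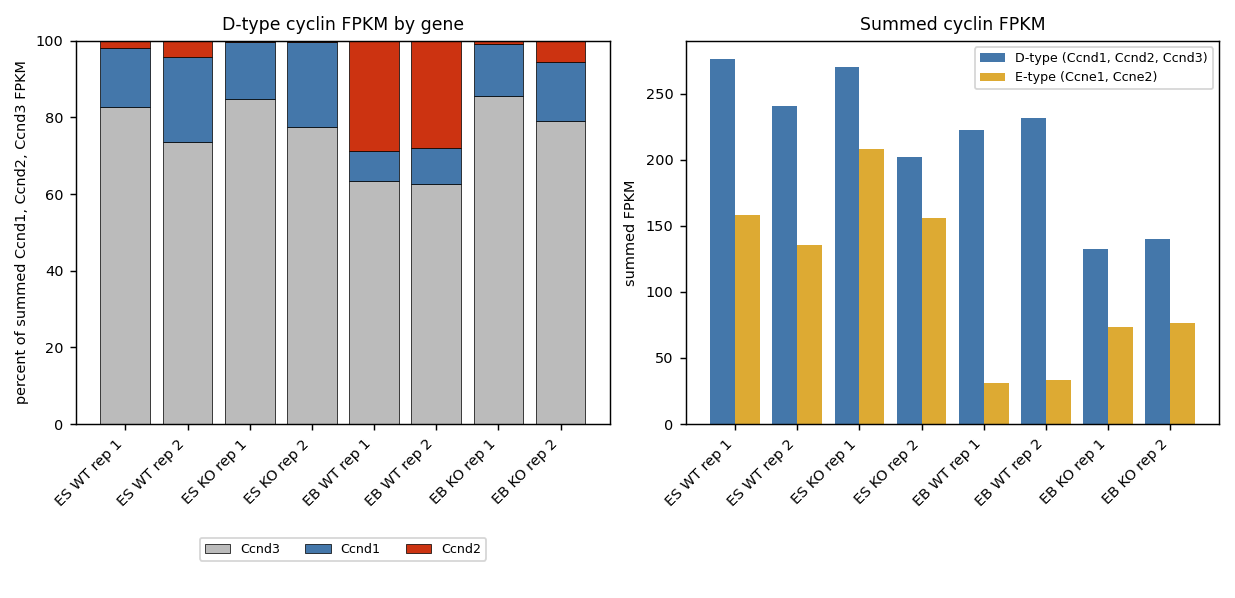
Left, share of each D-type cyclin in their summed FPKM (percent, stacked bars, 1 bar per library); right, summed FPKM of D-type and E-type cyclins (bars from 0). Ccnd2 takes 28.9% and 28.1% in WT EB and 5.60% or less in the other libraries, and the E-type sum is lowest in WT EB.

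Cdk4 and Cdk6, the kinases that D-type cyclins activate, went in opposite directions in KO EB. Cdk4 (ENSMUSG00000006728.12, chromosome 10, 127063534 to 127067920) was the most abundant of the 10 genes in each library, with 335 and 325 FPKM in WT ES, 318 and 308 in KO ES, 396 and 395 in WT EB, and 217 and 278 in KO EB. KO EB lay below all other libraries and WT EB above them. The KO against WT difference in EB was -0.69 ± 0.13 (adjusted p = 0.00490), and that in ES was -0.07 ± 0.13 (adjusted p = 0.883). The difference between both effects was called at -0.61 ± 0.18 (adjusted p = 0.0386). That call ended without any 1 of 7 libraries, at adjusted p of up to 0.104, and held without EB KO replicate 2 (adjusted p = 0.0127). Its difference from ES to EB was 0.26 ± 0.13 in WT (adjusted p = 0.112, and 0.0197 after quantile normalization) and -0.35 ± 0.13 in KO (0.0757, and 0.0340 without EB KO replicate 2). Cdk4 overlaps the locus of Tspan31, listed at up to 72.5 FPKM, and use of strand in counting is not given in the sources used here.

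Cdk6 (ENSMUSG00000040274.11, chromosome 5, 3341485 to 3531008) had 30.0 and 43.8 FPKM in WT ES, 46.7 and 39.0 in KO ES, 5.50 and 8.61 in WT EB, and 21.9 and 16.5 in KO EB. The ES groups overlapped each other, KO EB was intermediate and WT EB was lowest, with no overlap between the last 2 groups or with ES. Cdk6 fell by 2.24 ± 0.26 on the log2 scale from ES to EB in WT (adjusted p = 0.000320). In KO it fell by 1.13 ± 0.26 (adjusted p = 0.0192), not called when ES KO replicate 1 (adjusted p = 0.0920) or EB KO replicate 2 (0.0978) was left out, or with no filter on low values (0.0664). In EB, Cdk6 was higher in KO by 1.34 ± 0.26 (adjusted p = 0.00603). The difference between the KO effects in EB and ES, 1.11 ± 0.37, was not called (adjusted p = 0.0573), but was without ES WT replicate 1 (adjusted p = 0.0493) or EB WT replicate 2 (0.0498). The FPKM ratio of Cdk4 over Cdk6 was 72.1 and 45.9 in WT EB and between 6.82 and 16.9 in the other 6 libraries.

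The Cdk4 promoter is shown because it holds 4 copies of CACGTG, the E box that Myc and related factors bind. Promoter sequences are the 250 bases before the transcription start in RefSeq (GRCm38.p6, the mm10 assembly), 5′ to 3′ on the gene's strand. Capitals mark E boxes (CACGTG), GC boxes (GGGCGG, bound by Sp factors), CCAAT boxes and E2F sites (TTTCGCGC, TTTGGCGC, TTTCCCGC or TTTGCCGC), searched on both strands. An E box, in any number of copies, was held by 6.02% of 32851 RefSeq promoters. The share of promoters with 4 copies was not counted. A match describes the letters and shows no binding.
Cdk4, plus strand, chr10:127063285-127063534: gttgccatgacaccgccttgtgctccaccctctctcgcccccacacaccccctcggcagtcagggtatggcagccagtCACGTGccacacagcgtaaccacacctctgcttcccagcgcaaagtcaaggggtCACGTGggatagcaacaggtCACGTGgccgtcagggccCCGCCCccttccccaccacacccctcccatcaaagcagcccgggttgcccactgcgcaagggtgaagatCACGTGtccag

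In WT cells the E-type cyclins went opposite ways from ES to EB. Ccne1 (ENSMUSG00000002068.16, chromosome 7, 38097984 to 38107534) had 151 and 127 FPKM in WT ES, 197 and 145 in KO ES, 20.7 and 21.0 in WT EB, and 64.3 and 68.1 in KO EB. The ES groups overlapped, and KO EB stood between ES and WT EB with no overlap on either side. Ccne1 fell by 2.68 ± 0.16 on the log2 scale from ES to EB in WT (adjusted p = 3.63e-05) and by 1.34 ± 0.16 in KO (adjusted p = 0.00229). In EB it was higher in KO by 1.62 ± 0.16 (adjusted p = 0.000608), against 0.29 ± 0.16 in ES (adjusted p = 0.499). The difference between these effects was called at 1.34 ± 0.22 (adjusted p = 0.00700), also without each library in turn.

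Ccne2 (ENSMUSG00000028212.16, chromosome 4, 11191351 to 11204779) was expressed at a far lower level, with 6.83 and 7.92 FPKM in WT ES, 11.3 and 10.4 in KO ES, 10.1 and 12.1 in WT EB, and 9.22 and 8.28 in KO EB. WT ES was the lowest group, and KO ES and WT EB overlapped. Ccne2 rose by 0.53 ± 0.15 from ES to EB in WT (adjusted p = 0.0205), while Ccne1 fell. That rise was not called after quantile normalization (0.12, adjusted p = 0.527), without ES WT replicate 1 (adjusted p = 0.106) or without EB WT replicate 2 (0.119). The KO effect on Ccne2 was 0.50 ± 0.15 in ES (adjusted p = 0.212) and -0.31 ± 0.15 in EB (adjusted p = 0.145, and 0.0435 after scaling to the same total). The difference between them was called at -0.81 ± 0.22 (adjusted p = 0.0303), but not without any 1 of 7 libraries, at adjusted p of up to 0.0992. The call held without EB WT replicate 1 (adjusted p = 0.0451). After quantile normalization the difference between the KO effects was -0.53 and not called (adjusted p = 0.109). Ints8, which overlaps Ccne2, is listed at up to 23.9 FPKM, so reads could be shared.

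Summed over both genes, E-type cyclins came to 30.7 and 33.1 FPKM in WT EB and 73.5 and 76.4 in KO EB, and ran from 135 to 209 in ES. Ccne1 made up 67.3% and 63.4% of that sum in WT EB and between 87.5% and 95.7% in the other 6 libraries. The ratio of summed D-type to summed E-type FPKM was 7.25 and 6.99 in WT EB, 1.80 and 1.83 in KO EB, 1.75 and 1.78 in WT ES, and 1.30 and 1.30 in KO ES. On this ratio, given with no test, KO EB lay next to WT ES and far from WT EB.

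The promoter of Ccne1 is shown because this gene had the smallest adjusted p of the 10 in the EB comparison. It held 4 GC boxes (one or more in 32.7% of all promoters), 34 CpG against a median of 6 per promoter, and no match to the E2F sites searched, which 1.86% of promoters held.
Ccne1, minus strand, chr7:38107491-38107740: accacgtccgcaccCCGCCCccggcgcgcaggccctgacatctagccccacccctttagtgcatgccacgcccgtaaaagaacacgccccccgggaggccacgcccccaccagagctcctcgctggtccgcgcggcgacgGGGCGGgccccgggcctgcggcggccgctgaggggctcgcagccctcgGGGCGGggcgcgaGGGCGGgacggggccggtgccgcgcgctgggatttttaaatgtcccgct

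Cdk2 (ENSMUSG00000025358.16, chromosome 10, 128697939 to 128705031), the kinase of cyclin E, had the narrowest span of group means among the 10 genes, 0.17 on the log2 scale. It had 44.9 and 40.4 FPKM in WT ES, 41.4 and 38.0 in KO ES, 39.9 and 36.0 in WT EB, and 39.2 and 36.6 in KO EB. WT and KO overlapped at both stages, and limma called Cdk2 in 0 of the 5 comparisons, with the smallest adjusted p at 0.232 (unadjusted 0.178, WT EB against ES). Its KO against WT difference was 0.00 ± 0.11 in EB and -0.10 ± 0.11 in ES (adjusted p = 0.777). Pmel, at an overlapping locus, is listed at up to 12.4 FPKM.

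Both inhibitors rose from ES to EB in WT cells, and Cdkn1b also rose in KO cells. Cdkn1b (ENSMUSG00000003031.14, chromosome 6, 134920401 to 134925513) had 13.2 and 15.0 FPKM in WT ES, 9.75 and 15.2 in KO ES, 39.7 and 42.3 in WT EB, and 26.7 and 23.2 in KO EB. KO EB lay between ES and WT EB with no overlap. Cdkn1b rose by 1.48 ± 0.20 on the log2 scale in WT (adjusted p = 0.000628). In KO it rose by 0.97 ± 0.20 (adjusted p = 0.0129), which missed the threshold without EB KO replicate 1 (adjusted p = 0.0636) and with just the groups compared (0.0598). In EB the log2 difference between KO and WT was -0.70 ± 0.20 (adjusted p = 0.0261). This call ended without any 1 of the 4 EB libraries (adjusted p from 0.0665 to 0.117) and with no filter on low values (0.0707). The difference between the KO effects, -0.50 ± 0.28 (adjusted p = 0.214), was called at -0.80 without ES KO replicate 1 (adjusted p = 0.0386).

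Cdkn2a (ENSMUSG00000044303.6, chromosome 4, 89274471 to 89294653) was lowest in WT ES. It had 4.22 and 3.17 FPKM there, 14.4 and 10.8 in KO ES, 9.34 and 19.1 in WT EB, and 22.9 and 19.0 in KO EB. WT ES lay below all other libraries, and WT EB, whose libraries differed widely, overlapped both KO groups. Cdkn2a rose by 1.63 ± 0.32 from ES to EB in WT (adjusted p = 0.00355). In ES it was at a log2 difference of 1.53 ± 0.32 between KO and WT, which was not called (adjusted p = 0.101; unadjusted p = 0.00189). In EB the difference was 0.60 ± 0.32 (adjusted p = 0.162), and it was called at 1.08 without EB WT replicate 2 (adjusted p = 0.0272). The difference between the KO effects, -0.93 ± 0.45 (adjusted p = 0.158), was called at -1.40 without EB WT replicate 1 (adjusted p = 0.0348).

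Gene-level FPKM sum over the p16 and p19Arf transcripts of Cdkn2a, which share exons and start at separate promoters. Both promoters are printed to show how unlike they are. The upstream one, of p19Arf, held 40 CpG, 2 GC boxes and 1 E2F site. The downstream one, of p16, held 7 CpG and none of the motifs searched. The values in these files cannot assign RNA or marks to one or the other.
Cdkn2a upstream start, minus strand, chr4:89294620-89294869: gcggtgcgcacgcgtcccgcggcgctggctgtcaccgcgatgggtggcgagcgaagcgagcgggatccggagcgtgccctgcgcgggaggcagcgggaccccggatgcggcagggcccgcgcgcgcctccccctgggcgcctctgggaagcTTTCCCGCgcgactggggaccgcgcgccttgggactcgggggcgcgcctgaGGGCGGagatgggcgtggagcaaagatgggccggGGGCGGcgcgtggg
Cdkn2a downstream start, minus strand, chr4:89282193-89282442: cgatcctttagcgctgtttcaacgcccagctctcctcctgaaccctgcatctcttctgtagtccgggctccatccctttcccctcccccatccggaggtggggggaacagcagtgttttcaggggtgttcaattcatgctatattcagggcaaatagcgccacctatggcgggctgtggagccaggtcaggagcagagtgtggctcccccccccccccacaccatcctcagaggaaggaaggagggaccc

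Of the 10 genes 7 had a promoter in the RefSeq table, 9 promoters in all, and Ccnd1, Ccnd2 and Ccne2 had none. An E2F site was found in 2 of these 9 promoters, those of Cdk2 and upstream Cdkn2a. An E box was found in those of Cdk4 and Cdk6, and the CRE TGACGTCA, which 1.55% of all promoters held, in 0 of the 9.

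**Figure D3:**
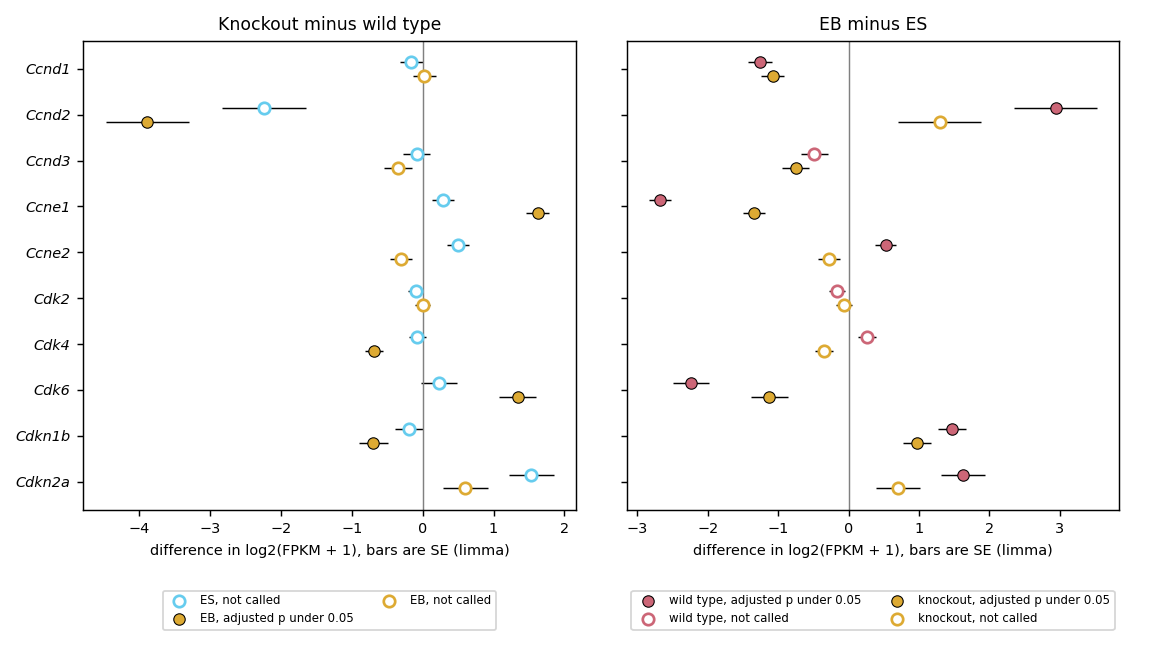
Differences in log2(FPKM + 1) with SE (limma) for the 10 genes, knockout minus wild type in ES and EB (left) and EB minus ES in wild type and knockout (right); filled points have an adjusted p under 0.05. In KO EB, Ccnd2 is at -3.89, Cdk4 at -0.69 and Cdkn1b at -0.70, while Ccne1 is at 1.62 and Cdk6 at 1.34.

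Histone marks were read from the deposited signal per gene. The file names call it RPKM on promoters, but it rose with locus length across genes (Spearman's rho from 0.59 to 0.69 for H3K27me3 and from 0.43 to 0.49 for H3K4me3), so levels are compared between libraries for 1 gene and not between genes. With 1 library per group there is no replicate check and no test. Ratios carry a pseudocount of 0.1, and a change of 2-fold or more is used as a rule of size.

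H3K27me3 at Ccnd1 was 0.827 in WT ES, 1.41 in KO ES, 15.3 in WT EB and 5.10 in KO EB. The mark was thus 16.6 times as high in EB as in ES in WT, and 3.43 times in KO, while Ccnd1 RNA fell in both. Between genotypes, KO EB had 0.338 of the WT EB signal at Ccnd1. The RNA difference there was 0.02 ± 0.17 and not called (limma, adjusted p = 0.921). At Cdkn2a the signal was 30.7 in WT ES, 17.3 in KO ES, 66.7 in WT EB and 21.1 in KO EB. It was 2.17 times as high in EB as in ES in WT and 1.22 times in KO, so that KO EB had 0.317 of the WT EB signal. Cdkn2a RNA rose in WT from ES to EB beside this higher H3K27me3.

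In KO against WT EB, 2 of the 10 genes, Ccnd1 (ratio 0.338) and Cdkn2a (0.317), were lower in H3K27me3 by 2-fold or more and 0 were higher. Over all 20462 genes 6.72% were lower and 5.82% higher by that rule. In ES, 0 of the 10 moved by 2-fold in either direction (all genes, 1.14% higher and 2.43% lower), with Cdkn2a at a ratio of 0.565. From ES to EB in WT, 3 rose and 0 fell (all genes, 11.8% and 9.02%), namely Ccnd1, Cdkn2a and Ccne1, the last from 0.160 to 0.520, which is 6 and 13 of the smallest steps in which the values come. With a pseudocount of 1 the log2 ratio of Ccne1 was 0.39, and with libraries divided by their sum that of Cdkn2a was 0.91, each under 2-fold. In KO, 1 rose, Ccnd1, and 0 fell (all genes, 7.6% and 1.55%).

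Ccnd2 carried H3K27me3 in all 4 libraries, at 16.6 in WT ES, 21.8 in KO ES, 20.2 in WT EB and 30.2 in KO EB, a log2 ratio of 0.58 in KO against WT EB. Cdk6 was at 10.6, 12.8, 14.3 and 15.8, and Ccnd3 at 3.92, 6.30, 5.72 and 6.46, in the same order. The other 5 genes (Ccne1, Ccne2, Cdk2, Cdk4 and Cdkn1b) lay between 0.0534 and 0.520 in all libraries, which is 17 steps or fewer, and their ratios rest on few reads if a step stands for 1 read.

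H3K4me3 at Ccnd2 was 10.1 in WT ES, 7.04 in KO ES, 30.5 in WT EB and 10.7 in KO EB. The signal was 3.01 times as high in EB as in ES in WT and 1.52 times in KO, and KO EB had 0.353 of WT EB. The order of the 4 groups in H3K4me3 was that of its mean RNA apart from KO EB and WT ES, which changed places. Ccnd2 was the 1 gene of the 10 that was lower by 2-fold or more in KO against WT EB (all genes, 3.24%), and 0 were higher (8.55%).

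Cdkn2a went from 6.91 in WT ES to 15.5 in WT EB in H3K4me3, 2.23 times as high, and from 9.71 to 11.3 in KO. With Ccnd2 it made 2 genes that rose by 2-fold or more from ES to EB in WT, and 0 fell (all genes, 9.28% and 10.9%). In KO, 0 rose or fell by that much (all genes, 1.35% and 1.94%). Cdk6 went from 38.7 to 22.7 in WT, a ratio of 0.588, and from 32.9 to 26.7 in KO. Cdkn1b went from 18.6 to 31.8 in WT and from 22.7 to 24.0 in KO. At Ccne1, whose RNA fell most, H3K4me3 was 22.0, 27.5, 24.8 and 21.2 in WT ES, KO ES, WT EB and KO EB, with no ratio past 2-fold. In ES, 0 of the 10 moved by 2-fold between KO and WT (all genes, 0.743% higher and 0.318% lower).

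**Figure D4:**
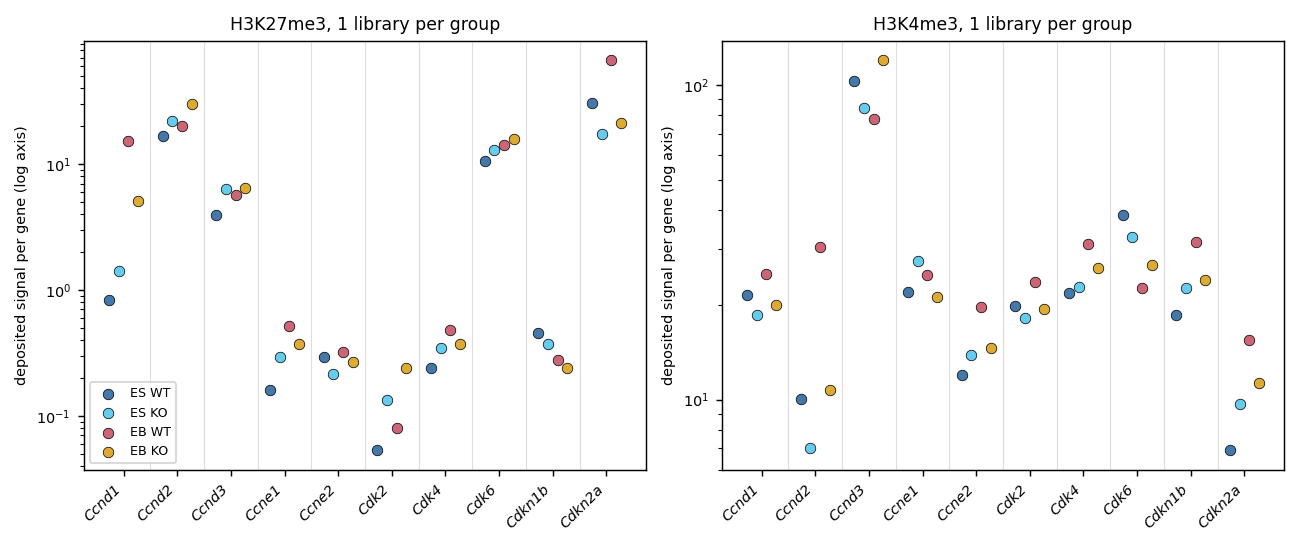
Deposited H3K27me3 (left) and H3K4me3 (right) signal at the 10 genes (log axes), 1 library per group and so no error bars; levels are not comparable between genes. H3K27me3 at Ccnd1 and Cdkn2a is highest in WT EB, at 15.3 and 66.7, and H3K4me3 at Ccnd2 is 30.5 in WT EB against 10.7 in KO EB.

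The remaining CDK inhibitors, a list of 5 genes, included several that were lower in KO EB. Of the 5, 3 fell and 0 rose, with a median of -0.56, where 25.9% of all genes fell and 20% rose. Cdkn1c, the p57 inhibitor and an imprinted gene, had 587 and 581 FPKM in WT EB and 107 and 98.0 in KO EB, at -2.50 ± 0.32 (adjusted p = 0.00144). Cdkn2d, which encodes p19Ink4d, fell by 0.92 ± 0.16 and Cdkn2c, which encodes p18Ink4c, by 0.56 ± 0.19 (adjusted p = 0.0479), from a level below 2 FPKM. Cdkn1a, a p53 target, was at -0.11 ± 0.16 in EB (adjusted p = 0.596), and Cdkn2b, the neighbour of Cdkn2a, at 0.14 ± 0.31 (adjusted p = 0.742). In WT all 5 rose from ES to EB, and 3 rose in KO (all genes, 36.1% and 17.1%). In ES, Cdkn1a was called higher in KO, with 22.6 and 18.6 FPKM in WT and 51.6 and 47.4 in KO (log2 difference 1.23 ± 0.16, adjusted p = 0.0353). Of all genes 0.421% were called higher there. With just the groups compared, 0 genes were called higher in KO ES, so this call was then lost.

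Among 18 genes of the retinoblastoma family, E2F factors and the DREAM complex, 2 rose and 1 fell in KO EB, with a median of 0.19. Of all genes 20% rose and 25.9% fell there, so fewer of this list were called than of all genes. Mybl2, the B-Myb factor that works with DREAM subunits to switch on mitotic genes, had 300 and 307 FPKM in WT ES, 291 and 287 in KO ES, 20.4 and 24.9 in WT EB, and 225 and 167 in KO EB. It was higher in KO EB by 3.05 ± 0.16 (adjusted p = 0.000165). E2f4, a mostly repressive E2F, rose by 0.59 ± 0.15 (adjusted p = 0.0156), and E2f6, a repressor tied to Polycomb complexes, fell by 1.05 ± 0.17 (adjusted p = 0.00310). Rb1 was at 0.01 ± 0.24 (adjusted p = 0.971), with 3.95 and 5.08 FPKM in WT EB and 5.04 and 4.09 in KO EB. E2f1 was at 0.44 ± 0.22 (adjusted p = 0.146).

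Genes that act after the G1 kinases were higher in KO EB. Of 20 tested E2F target genes of S phase entry 16 rose and 0 fell (all genes, 20% and 25.9%), with a median of 0.58 beside -0.064 over all genes. Orc1, of the origin recognition complex, rose by 1.54 ± 0.13, Mcm7, of the replicative helicase, by 0.92 ± 0.11, and Cdc6, which loads that helicase, by 0.89 ± 0.12. Between ES and EB, 16 of the 20 fell in WT and 4 in KO (all genes, 24.8% and 12%). All 5 tested S and M phase cyclins and Cdk1 rose in KO EB, with a median of 0.67 and Ccnb1, the mitotic cyclin B1, at 1.03 ± 0.12. In WT all 5 fell from ES to EB, with a median of -1.02, beside -0.28 in KO.

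In the lists of CDK activation and of protein turnover, 4 of 11 tested genes each were called in KO EB, beside 45.9% of all genes. Of 11 genes of CDK activation and assembly 4 rose and 0 fell in KO EB, with Wee1, which inhibits Cdk1, at 0.87 ± 0.15 and Cdc25a, the phosphatase that activates Cdk2, at 0.61 ± 0.11. Of 11 tested genes for turnover of cyclins and inhibitors 3 rose and 1 fell. Skp1a was at 0.77 ± 0.11 and Fbxo5, an inhibitor of the anaphase-promoting complex, at 0.90 ± 0.16. The activators of that complex went opposite ways, with Fzr1 at -0.50 ± 0.11 and Cdc20 at 0.60 ± 0.11, both called. Skp2, which marks p27 for destruction, was at -0.23 ± 0.14 (adjusted p = 0.225). Fbxw7, which marks cyclin E, was at 0.61 ± 0.23 (adjusted p = 0.0637).

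Of the 9 genes of the Myc family 1 rose and 3 fell in KO EB, beside 20% and 25.9% of all genes. The share of the family that was called is thus near the 45.9% of all genes. The antagonists Mxd4 and Mxd1 were at -2.03 ± 0.27 and -1.36 ± 0.19, and Mxi1 at -0.42 ± 0.14 (adjusted p = 0.0442). Max, the shared partner, rose by 0.37 ± 0.12 (adjusted p = 0.0372). Myc itself had 15.2 and 17.0 FPKM in WT EB and 12.6 and 17.9 in KO EB, at -0.09 ± 0.22 (adjusted p = 0.763), and Mycn was at 0.14 ± 0.30 (adjusted p = 0.730).

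**Figure D5:**
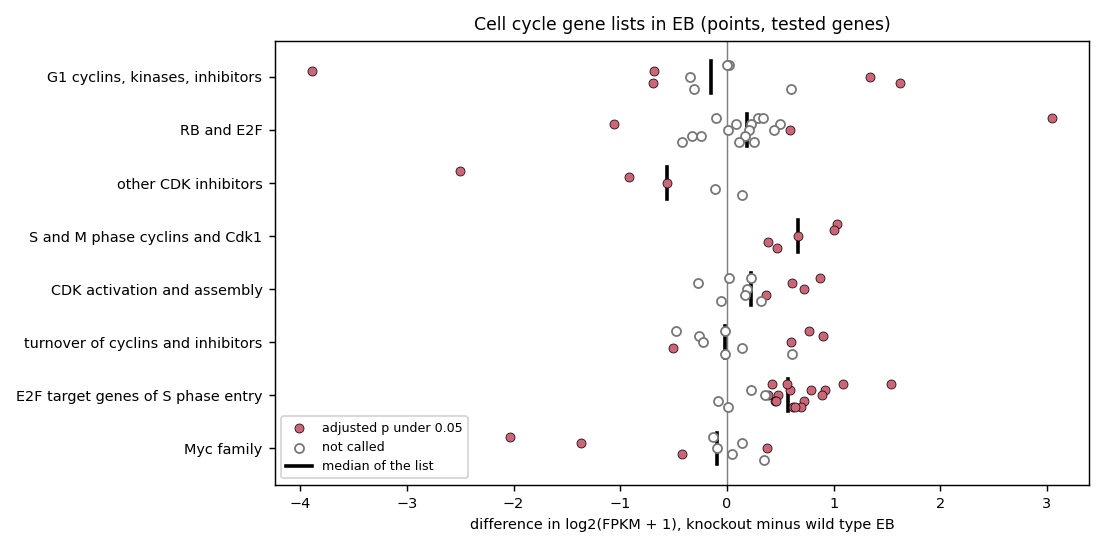
Difference in log2(FPKM + 1) between KO and WT EB for the tested genes of the G1 list and 7 further cell cycle lists (points, genes; filled, adjusted p under 0.05; bars, list medians). The medians run from -0.56 for the other CDK inhibitors to 0.67 for S and M phase cyclins and Cdk1, with the G1 genes at -0.15.

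Cell type markers moved with the same groups. All 15 markers of pluripotent cells fell from ES to EB in WT, against 24.8% of all genes. From ES to EB in KO, 6 of the 15 fell, against 12% of all genes. All 15 were higher in KO than in WT EB. Their summed FPKM in EB were 8170 and 5790 in KO against 352 and 617 in WT. Markers of cardiomyocytes (8 of 8), fibroblasts and feeders (11 of 12), blood and endothelium (8 of 10), endoderm (5 of 8) and neural progenitors (4 of 5 tested) were lower in KO EB, and 1 fibroblast and feeder marker was higher. Of all genes 25.9% were lower and 20% higher there. Blood and endothelium markers summed to 2387 and 615 FPKM in WT EB and to 77.2 and 98.8 in KO EB, so the WT EB libraries were unequal. No marker was listed at 0 in an EB library. In ES, Lum, Dcn, Hbb-y, Hbb-bh1 and Apoa1 were each at 0 in at least 1 library. Each change of a G1 gene between WT and KO EB goes with this difference in markers, and its part in the result was not tested.

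Similar courses over the 8 libraries were shared with genes outside the cell cycle lists. Pearson's r of log2(FPKM + 1) was taken with 8842 genes averaging 5 FPKM or more, after symbols that are Gm, Rik, clone or pseudogene names were left out. Among them, those most like Ccne1 were Srxn1 (0.999), Ppa1 (0.998) and Sall4 (0.997). Those most like Ccnd2 were Apopt1, Ergic1 and Cope (0.987 to 0.990), those most like Cdk6 were B3gnt7, Pop1 and Sorl1 (0.988 to 0.991), and those most like Cdkn1b were Khnyn, Hook3 and Kifap3 (0.990 to 0.991). Ccnd1 was nearest to Pgs1, Snrnp70 and Tns3 (0.988 to 0.992). Cdkn2a had less close neighbours, Tbk1, Depdc5 and Swt1 (0.952 to 0.969). Among the 10 genes, Cdk6 went with Ccne1 (r = 0.97) and Cdkn1b against it (r = -0.98). The 8 points are 4 groups of 2 libraries, so these values mostly follow the 4 group means.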

How the data were processed

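RNA-seq and ChIP-seq tables of TL1 mouse cells were used as deposited. Cufflinks 2.2.1, STAR 2.6.0a, DESeq2, Bowtie2, HTSeq and the build mm10 are named in the submitters' processing notes, without their roles. The deposited FPKM are in Cufflinks format, per the file headers, with a column for each of 8 libraries. The deposited ChIP signal per gene, 1 library per mark and group, comes in whole multiples of a step (93.8% to 99.1% of genes, within 0.02 of a step). The step was 0.04 for H3K27me3 in WT EB and 0.02668 in all other libraries. The counting window is not given in the sources used here. The design had assumed promoter RPKM. Input libraries were not analysed here.

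Of symbols with several entries the one with the highest mean was kept (120 entries left out). Genes reaching 1 FPKM in 2 or more libraries were fitted as log2(FPKM + 1) by limma 3.58.1 (R 4.3.3) on the 4 group means, using eBayes and a trend (4 residual degrees of freedom, 7.05 after moderation). The 5 contrasts were KO against WT at both stages, EB against ES in both genotypes, and the difference of KO effects. The fit was tested on simulated data. Alternatives were another pseudocount, filters, scalings, fewer groups, a replicate block and leaving out each library. Loci had 1 added to their 0-based start.

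The genes and lists were chosen with earlier results of these data known. Named genes are all 10 members, any gene of the retinoblastoma and inhibitor lists, and up to 4 called genes of each other list with the smallest adjusted p in EB. Skp2, Fbxw7, Myc and Mycn were added after their values were seen. Fbxo31, Cdt1 and Tubb3 were not analysed here. The 3 genes most alike are given for members whose group means span 1 or more on the log2 scale.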

Additional observations from a re-analysis of the deposited data

Results flagged for a closer look

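For 3 of the 10 genes the knockout effect differed between EB and ES by limma's test of the difference itself, a share near the 31.3% of all genes called in that test. The difference (EB effect minus ES effect, log2) was 1.34 for Ccne1, -0.81 for Ccne2 and -0.61 for Cdk4. All groups have 2 libraries, too few to look for a single sample far from the others. The KO effect on Ccne1 was 1.62 in EB and 0.29 in ES. Ccne2 had effects of -0.31 and 0.50, neither of them called, and Cdk4 had effects of -0.69 and -0.07. After quantile normalization the difference for Ccne2 was -0.53 and not called (adjusted p = 0.109). The calls for Ccne2 and Cdk4 each held in 1 of the 8 fits that left out a library and were lost with no filter on low values (adjusted p = 0.0501 and 0.0887), while that for Ccne1 held in 8 of 8.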

How the results depend on the processing

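The EB calls for Ccnd2, Ccne1, Cdk4 and Cdk6 between KO and WT kept their direction and adjusted p under 0.05 in all 7 alternative settings and without each of the 8 libraries. Lower calls in KO EB numbered 5 after scaling to the same total, against 3. That scaling moved the median log2 difference of all genes from -0.064 to -0.247 in this comparison. From ES to EB in KO, higher calls went from 1 to 0 with just the groups compared, and lower calls from 4 to 2 with no filter on low values. For the difference of KO effects, higher calls went from 1 to 2 after quantile normalization, and lower calls from 2 to 0 with no filter and 1 after quantile normalization. Leaving out 1 library changed which genes were called in all 5 comparisons. The calls that changed were those of Cdkn1b and Cdkn2a in KO against WT EB, and of Ccnd2 in KO against WT ES. From ES to EB they were Ccnd3 and Ccne2 in WT, and Ccnd2, Ccnd3, Cdk4, Cdk6 and Cdkn1b in KO. For the difference of KO effects they were Ccnd2, Ccne2, Cdk4, Cdk6, Cdkn1b and Cdkn2a. Dividing libraries by their median left 1 gene higher and 1 lower by 2-fold in H3K4me3 in WT EB against ES. The latter was Cdk6, and the fold of Cdkn2a then missed 2-fold.

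Signs turned for uncalled differences. In KO against WT EB, Ccnd1 was at -0.18 after scaling to the same total and Cdk2 at 0.025 after quantile normalization. The difference of KO effects was -0.028 for Ccnd1 and -0.11 for Cdk2 after that scaling. Leaving out 1 library gave, in ES, -0.32 to 0.0079 for Ccnd1, -0.36 to 0.19 for Ccnd3, -0.038 to 0.50 for Cdk6 and -0.49 to 0.10 for Cdkn1b, in EB -0.11 to 0.16 for Ccnd1 and -0.072 to 0.071 for Cdk2, and -0.54 to 0.011 for the difference of Ccnd3. The cause was not tested.

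Titles give a number to the second library of each group, with no shared culture or day stated. Deviations of same-numbered libraries correlated at 0.07 to 0.31 across genes, above 0 for all pairs of groups and under 0.1 for some. The highest was between WT ES and KO ES. As the titles do not say what the numbers stand for, they were not taken to pair samples in the main fit. With the replicate block, 2 genes were called higher and 3 lower in KO EB, as without it, and Ccnd3 was called lower in WT EB against ES (adjusted p = 0.0358). Over all genes the block took higher calls between KO and WT ES from 65 to 43.

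With only genes at a signal of 1 or more, chosen after seeing the data, 2 of the 10 rose in H3K27me3 from ES to EB in WT (14.8% of such genes). Over all genes, 65 higher and 12 lower calls between KO and WT ES went to 0 and 1 with just the groups compared, 35 and 6 with a pseudocount of 0.1, 36 and 4 at a mean of 5 FPKM, and 0 and 0 without ES KO replicate 1. No read counts are given, so the precision of low FPKM such as Ccnd2 in KO ES is unknown.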
